A study of Mus musculus with 38 samples.

Results

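The 4 mouse Hox clusters were examined for binding of RUNX1, CTCF, Med12 (part of the Mediator complex), the histone acetyltransferase p300 and the Notch1 intracellular domain (Notch1-IC) while lymphoid progenitors received their first Notch signal. A peak was counted as a Hox peak when its center lay within 20 kb of the body of any of 38 listed Hox genes, 10 in Hoxa, 10 in Hoxb, 9 in Hoxc and 9 in Hoxd. By this rule 93 of 359759 deposited peaks were Hox peaks, 45 of them in Hoxa, 17 in Hoxb, 13 in Hoxc and 18 in Hoxd. Membership of a peak rested on its position alone and not on its score.

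HOX proteins are homeodomain transcription factors that give positional identity along the body axis in the embryo, and their genes sit in rows whose order follows their domains of expression. In blood, 5′ Hoxa genes such as Hoxa7, Hoxa9 and Hoxa10 are known as genes of stem and early progenitor cells, and Hoxa9 together with its cofactor Meis1 is a classical driver of leukemia. CTCF is a zinc-finger protein that stops cohesin and marks borders between chromatin domains, and borders inside Hox clusters separate active from silent genes in many tissues. RUNX1, which binds DNA with its partner Cbfb, recruits coactivators such as p300 and Mediator to enhancers and promoters of blood cells.

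All profiles came from Cas9-LP cells, a lymphoid progenitor line made from fetal liver progenitors of mice that were Ebf1-deficient and had Cas9 knocked in at Rosa26, so that every group lacked Ebf1 and carried Cas9. LP cells grew with SCF, Flt3L and IL-7 on mitomycin C-treated OP9 stroma, which the study used as its condition without Notch stimulation. Phase 1 cells had been moved to OP9 stroma that presents the Notch ligand DLL4 (OP9-DLL4), and Phase 2 was a later stage of that culture, used for Notch1-IC only. In a further set, pools of retroviral guide RNAs against Ctcf (LP), Med12 or Cbfb (Phase 1) were compared with control guides (sgCont). Each of the 19 groups had 2 samples, and each of the 17 antibody groups had 1 deposited list that already combined both replicates, whereas the 4 input samples had none. Only these combined lists were used, with no value per replicate, so none of the differences between lists given below was tested, and intervals on shares cover counting error only. The peak score is the authors' normalized read score, of at least 15 in every list. Lists were not scaled to each other here, so a score is given with its percentile, the share of peaks in the same list that scored lower. The cells were profiled in bulk, and binding in fewer cells cannot be told apart from weaker binding in each cell.

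Lists of the main series held between 30020 and 49116 peaks, while those from guide-treated cells held from 874 to 19053 and those of Notch1-IC from 152 to 1585. Among marker genes of cell types, Med12 or p300 lay within 1 kb of a start of 6 of 6 progenitor genes in LP (among them Kit, Flt3 and Spi1) and of 5 of 6 in Phase 1. The same held for 5 of 6 early T-lineage genes in both stages, so these genes did not separate the stages. The share of all genes with Med12 or p300 there was not counted by stage. RUNX1, Med12 or p300 of any list lay that close to a start in 56.7% of 21924 protein-coding genes. Of 8 genes of stromal cells, 0 were marked in LP and 4 in Phase 1 (Col1a1, Col1a2, Twist1 and Fn1), with Col3a1, Pdgfra, Pdgfrb and Postn unmarked in both. The part of OP9-DLL4 cells in Phase 1-only Hox peaks was not tested.

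CTCF supplied 52 of the Hox peaks, at 29 places, and the core sequence by which CTCF is known to bind was searched at each of them. None of the Hox peaks held the 12-letter CTCF core consensus exactly within the central 200 bp, on either strand. With 1 mismatch, 7 of 29 Phase 1 peaks held it, and these are printed in mm10 on the strand that reads the core, with the core in capitals and 9 bases on each side.
Hoxa5 start: gcccagtctCCAGCGGGTGGCgctcgagtc
Hoxa7 start: aagaaaattCCAGGAGATGGCagtgtggct
Hoxa10 outer start: tcgcagccgCCACGAGATGGCgcactcccg
upstream of Hoxa13: gatctttccCCACTAGATGTCttccaagtt
upstream of Hoxb8: gcacagtggCCGCTAGATGGCatccttgct
upstream of Hoxd12: gccaaacgcCCAGGAGATGGCgagcgtgct
upstream of Hoxd8: cgcatttggCCACTAGAGAGCgctgttgct

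These windows lie at chr6:52204650-52204679, chr6:52221800-52221829 and chr6:52240532-52240561 on the minus strand, chr6:52270693-52270722 and chr11:96278939-96278968 on the plus strand, chr2:74673169-74673198 on the minus strand and chr2:74702386-74702415 on the plus strand. The core lay at most 13 bp from the center of its peak. In 5 of the 7 it ran on the strand of the Hox genes around it and in 2, upstream of Hoxa13 and of Hoxd12, on the opposite strand. Exact cores were present in 16.6% of all LP and 16.6% of all Phase 1 CTCF peaks, and in 0.185% and 0.181% of windows of the same length 2 kb away. The 0 of 23 LP Hox peaks and 0 of 29 Phase 1 Hox peaks allow shares of up to 13.0% and 10.3% if a count of 0 is taken to allow 3 counts, and 14.3% and 11.7% by the Wilson interval. With 1 mismatch the core was in 62.9% of LP and 63.4% of Phase 1 peaks, against 30.4% and 24.1% of the Hox peaks. When 2 mismatches were allowed, a setting added after the data were seen, the core was found in 17 of 23 LP (73.9%) and 21 of 29 Phase 1 Hox peaks (72.4%), and in 88.1% and 88.6% of the lists. CTCF peaks of the Hox clusters thus held the core less often than the lists as a whole at each number of mismatches counted, although many of them scored high.

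**Figure D1:**
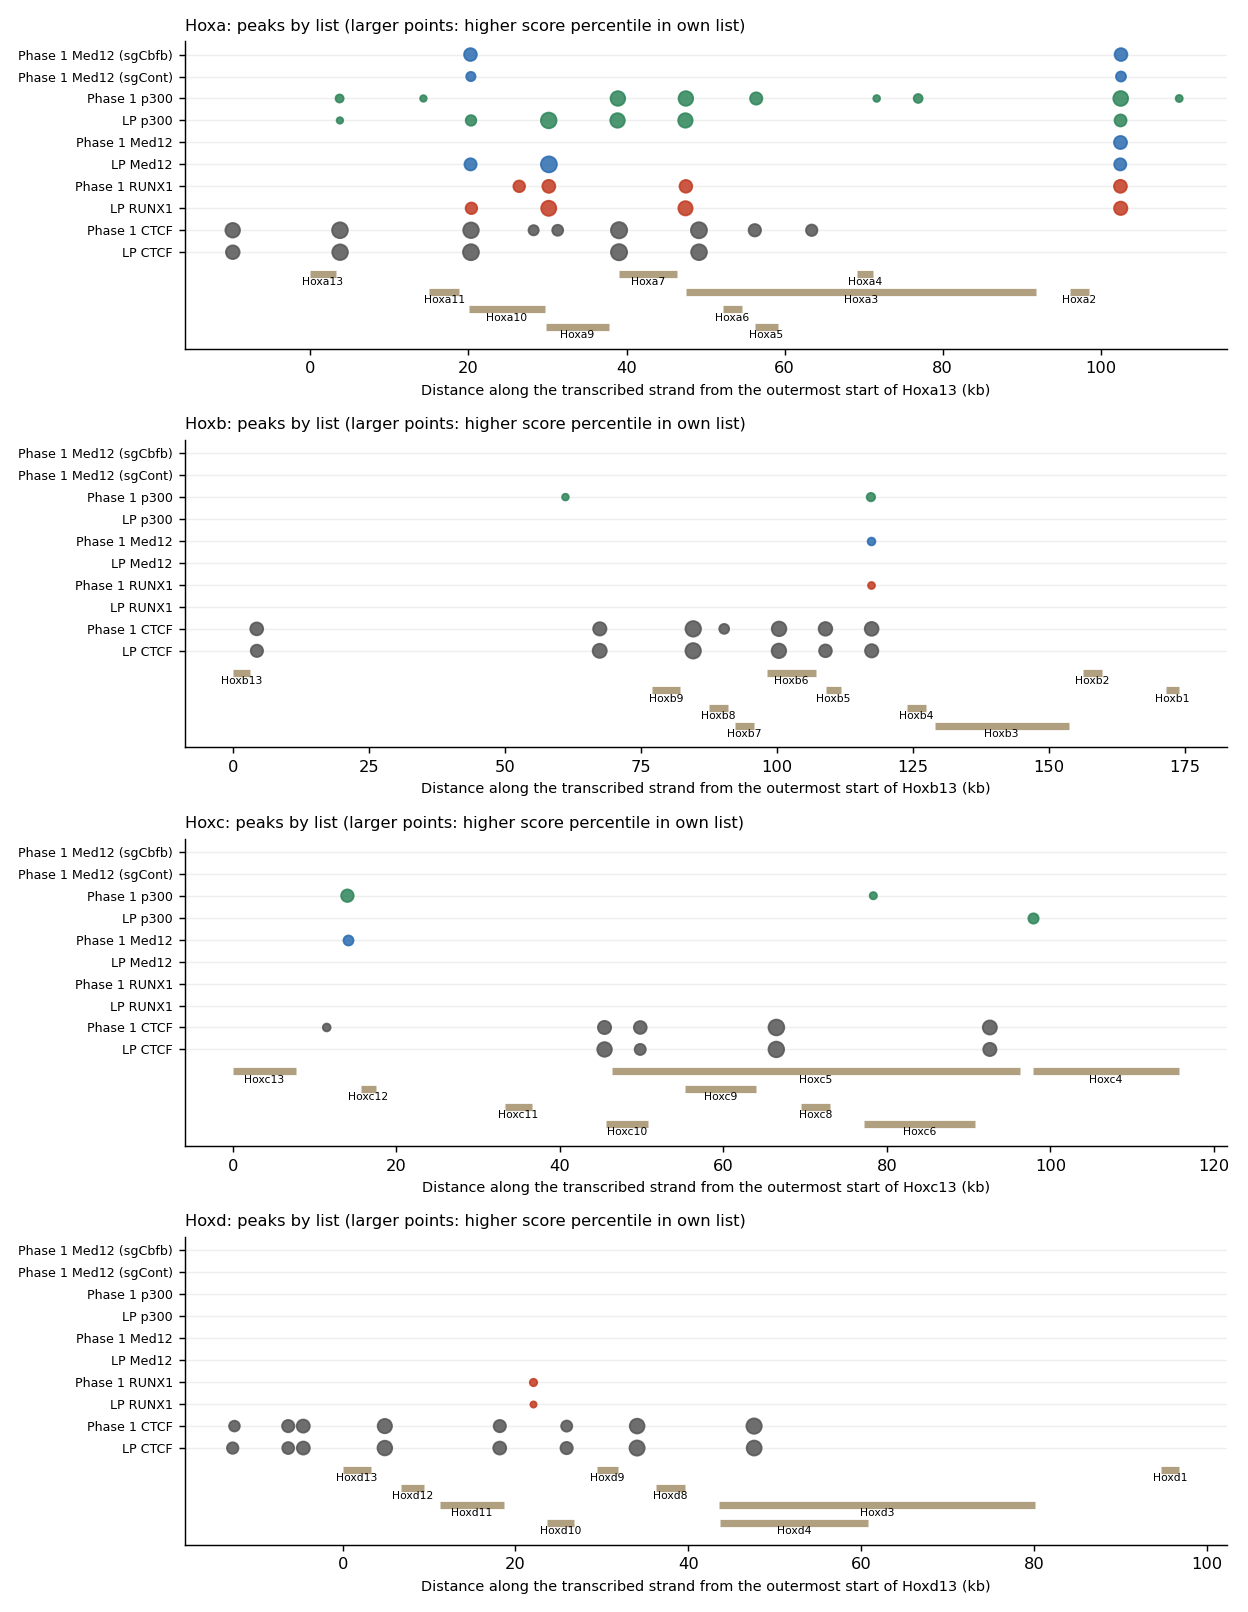
Peaks of 10 lists along the 4 clusters. Each panel has distance in kb along the transcribed strand on its x axis, from the outermost annotated start of Hoxa13, Hoxb13, Hoxc13 or Hoxd13, the lists on its y axis and gene bodies as bars below. Point size follows the score percentile within the list. CTCF points recur in both stages in all 4 clusters, whereas most RUNX1, Med12 and p300 points are in Hoxa.

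CTCF was the only factor with more Hox peaks per length than the genome average in both stages and in all 4 clusters. The windows held 3.76 CTCF peaks per 100 kb in LP and 4.75 in Phase 1, against 1.66 and 1.64 over the genome. Regions 200 kb to each side of the clusters held 3.25 and 3.19. In LP the density was 5.85 in Hoxd, 3.61 in Hoxa, 3.33 in Hoxb and 2.57 in Hoxc. In Phase 1 it was 6.50 in Hoxa and still 5.85 in Hoxd. Neighboring CTCF sites were a median of 7.8 kb apart in Hoxa and 8.2 kb in Hoxd, and 9.3 kb and 21.4 kb in Hoxb and Hoxc. The widest gap between 2 sites was 63.0 kb, between Hoxb13 and the rest of Hoxb, where part of the stretch lies outside the windows and was not searched.

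The strongest CTCF sites of the clusters lay among the Hoxa genes. The highest score in both stages belonged to the start of Hoxa7, at 295.7 in LP (97.9th percentile) and 411.5 in Phase 1 (98.7th). The outer start of Hoxa10 scored 250.1 (95th percentile) and 226.5 (89.6th), with CTCF centered in its 5′ untranslated region. A site in the long intron of Hoxa3, at chr6:52211506-52211932, scored 227.3 (92.4th percentile) and 304.4 (96.1st). These were the 3 highest LP scores in the clusters. In Phase 1 the third place went to a site 3.67 kb downstream of the start of Hoxa13, at 253.8. In the other clusters the highest sites lay upstream of Hoxc8 (211.9 in LP and 252.0 in Phase 1), upstream of Hoxb8 (198.3 and 219.8), upstream of Hoxd8 in LP (179.8) and inside Hoxd4 in Phase 1 (205.7).

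All 23 LP CTCF Hox peaks overlapped a Phase 1 CTCF peak (100%, 95% Wilson interval 85.7 to 100), against 90.5% of the LP CTCF list. In the other direction 23 of 29 Phase 1 Hox peaks overlapped an LP peak (79.3%, 61.6 to 90.2), against 91.7% of the Phase 1 list. The remaining 6 peaks were in the Phase 1 list only, 4 of them in Hoxa, 1 in Hoxb, 1 in Hoxc and 0 in Hoxd. The highest of them lay on the start of Hoxa5 and scored 70.8 (50.7th percentile). A second was in an intron of Hoxa3 at chr6:52197243-52197669, with a score of 50.7. A pair of them flanked the Hoxa9 and Hoxa10 border, at 44.1 in an exon of Hoxa9 and 36.5 in a coding exon of Hoxa10. The Hoxb and Hoxc peaks scored 33.7, in the untranslated region of Hoxb8, and 21.1, upstream of Hoxc12. All 6 therefore scored below most shared Hox sites, as stage-only CTCF peaks did in the list as a whole. Their median percentile was 32.2, against 10.7 for all 3738 Phase 1-only CTCF peaks.

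Among the 23 shared sites, the score percentile was higher in Phase 1 at 15 and lower at 8, with a median difference (Phase 1 minus LP) of 1.08 percentile points. In the list as a whole it was higher at 45.7% of 41055 shared peaks, with a median of -0.511 and quartiles of -4.54 and 3.36. It was higher at 4 of 5 sites in Hoxa, 5 of 6 in Hoxb and 3 of 4 in Hoxc, but at 3 of 8 in Hoxd. The median differences were 2.30, 3.63 and 6.30 points in Hoxa, Hoxb and Hoxc and -4.86 points in Hoxd. Both extremes were in Hoxc. The site in Hoxc10 went from 37.4 to 55.5, a difference of 18.1 points, while the Hoxc10 start went from 76.7 to 60.1, a difference of -16.5 points.

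**Figure D2:**
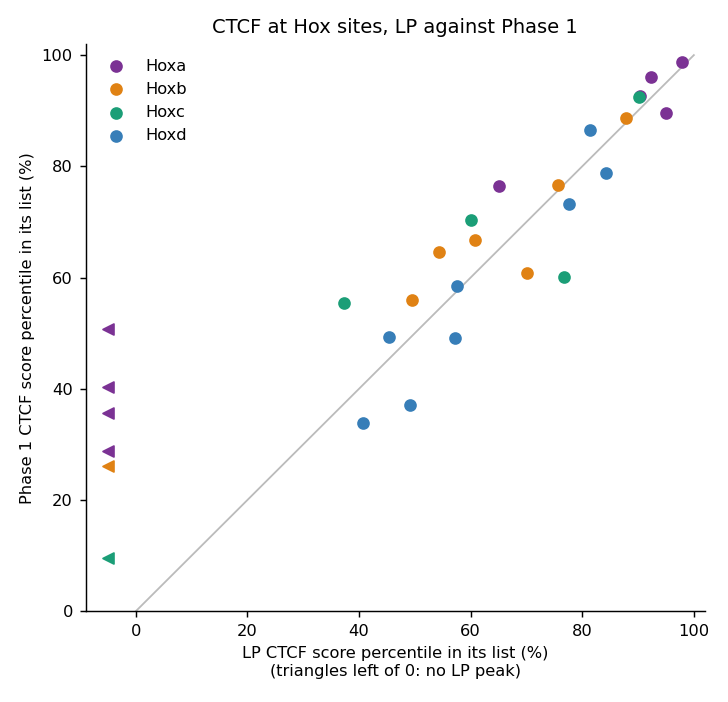
CTCF score percentile (%) of each Hox site within the LP list (x axis) and the Phase 1 list (y axis), 1 point per site, colored by cluster. The line marks equal percentiles, and triangles left of 0 are the 6 sites without an LP peak, at 9.62 to 50.7 on the Phase 1 axis.

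RUNX1, Med12 and p300 gave 37 Hox peaks in the main lists, 27 of them in Hoxa (73.0%), 4 in Hoxb, 4 in Hoxc and 2 in Hoxd. Of the 42 separate sites in the windows, 24 had CTCF only, 13 had only other factors and 5 had both. All 8 CTCF sites of Hoxd and all 5 of Hoxc were without any other factor. The share of all CTCF peaks that lacked every other factor was not counted, so these counts are not read as a trait of Hoxc or Hoxd. Over the LP lists, 7425 RUNX1 and 8391 p300 peaks overlapped CTCF, beside 45388 CTCF peaks. CTCF without RUNX1 or p300 was thus common in the whole LP list too. Med12, Phase 1 and the guide lists were not counted in this way. Whether CTCF sites without other factors are more frequent at Hox genes was not tested. RUNX1 had 0.818 Hox peaks per 100 kb in LP and 0.982 in Phase 1, under the genome averages of 1.17 and 1.41 and under the 1.44 and 2.12 of the flanking regions. Med12 had 0.491 in each stage, against 1.1 and 1.44 over the genome. p300 had 1.15 in LP, against 1.33, and 2.13 in Phase 1, against 1.80. The flanking regions held more than the windows for both, with 1.31 and 2.31 for Med12 and 1.87 and 3.56 for p300. Hoxa on its own stood above all of these averages for RUNX1 (2.89 in both stages) and p300 (4.33 and 6.50).

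**Figure D3:**
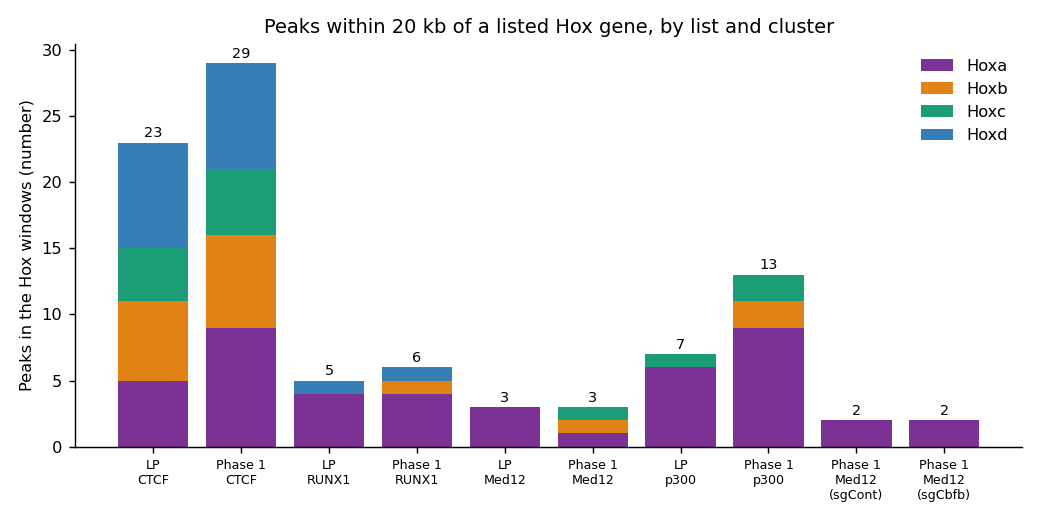
Number of Hox peaks (y axis) in 10 lists (x axis), stacked by cluster, with the total above each bar. CTCF bars of 23 and 29 are split over 4 clusters, and the RUNX1, Med12 and p300 bars are mostly Hoxa.

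Within 1 kb of an annotated start, 7 of 38 Hox genes had RUNX1, Med12 or p300 in any list (18.4%, 9.22 to 33.4), against 56.7% of 21924 protein-coding genes. CTCF was at the starts of 7 of 38 as well (18.4%), against 32.4%. The 6 Hoxa genes Hoxa3, Hoxa5, Hoxa7, Hoxa9, Hoxa10 and Hoxa11, and 1 gene outside Hoxa, Hoxc4, made up the first group. Starts of 28 Hox genes had none of the 4 factors, and they included every Hoxd gene and every Hoxb gene except Hoxb5.

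The site with the clearest difference between stages was in Hoxa9, at chr6:52230522-52230890. It lay 0.17 kb upstream of an internal start of Hoxa9 and inside an intron of its longest transcript, close to the start of the microRNA gene Mir196b at chr6:52230165. In LP it held the highest Med12 score of the clusters, 207.3, at the 95.1st percentile of the list. It also held their highest p300 score, 203.6 (91.0th), and their highest RUNX1 score, 116.3 (82.8th). In Phase 1 RUNX1 was still called there at 52.2 (56.6th percentile), but neither the Med12 nor the p300 list had a peak. Of 1482 LP Med12 peaks scored at least as high, 18 (1.21%) had no Phase 1 counterpart, and of 3242 such p300 peaks, 58 (1.79%). Over the genome, 606 of 26258 LP RUNX1 peaks that overlapped both Med12 and p300 (2.31%) were left with RUNX1 alone in Phase 1. The site was picked for description because it headed the LP lists, so these shares describe it and test nothing. No CTCF peak lay on it, although the Phase 1-only CTCF peaks of Hoxa9 and Hoxa10 lay on either side.

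The outer start of Hoxa10, at chr6:52240334-52240788, showed a like difference between stages at lower scores. LP cells had RUNX1 at 38.6 (41.6th percentile), Med12 at 46.5 (48.0th) and p300 at 33.5 (32.3rd) there, together with the strong CTCF peak described above. In Phase 1 CTCF was the only one of the 4 main lists with a peak. Both Phase 1 Med12 lists from guide-treated cells did have one, at 21.5 (21.2nd percentile) with sgCont and 40.2 (54.7th) with sgCbfb, so that its absence from the main Phase 1 Med12 list did not extend to them. Another RUNX1 peak, in a coding exon of Hoxa10 at chr6:52234290-52234618, was found in Phase 1 only (36.9, 42.8th percentile) and had no other factor.

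Sites where RUNX1, Med12 or p300 was kept in both stages were also mainly in Hoxa. At the outer start of Hoxa3, which lies next to the end of Hoxa7 at chr6:52213206-52213597, RUNX1 scored 83.8 in LP (72.2nd percentile) and 48.6 in Phase 1 (53.9th). p300 scored 109.1 (74.5th) and 96.4 (76.7th) there, and no list had Med12. At the start of Hoxa7, p300 scored 113.6 (75.8th) and 97.3 (76.9th) next to the strongest CTCF peak, without RUNX1 or Med12. A region 4.1 kb beyond the 3′ end of Hoxa2, which the authors' annotation places at a promoter outside the listed genes, was the only one of the clusters with all of RUNX1, Med12 and p300 in both stages. RUNX1 scored 63.2 in LP and 52.2 in Phase 1 there, Med12 46.0 and 47.9, and p300 49.3 and 106.6. The p300 percentile was 46.5 in LP and 79.4 in Phase 1, whereas the RUNX1 percentile was 61.4 in LP and 56.6 in Phase 1. At all 3 shared RUNX1 sites of Hoxa the percentile was lower in Phase 1, by a median difference of -18.3 points. At the shared RUNX1 site of Hoxd it was higher, by 7.12 points. Over all 26610 shared RUNX1 peaks it was higher at 61.8%, with a median of 2.59 and quartiles of -3.29 and 12.3. The Phase 1 RUNX1 list was also the longer one (38399 against 31995 peaks), and what that adds to the percentiles was not tested.

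Outside Hoxa, no peak of these factors scored above the 51.9th percentile of its list. Between Hoxb5 and Hoxb4, at chr11:96311432-96311952, a CTCF site of both stages (92.0 and 116.0) also had RUNX1 at 16.3 (4.28th percentile), Med12 at 17.9 (9.50th) and p300 at 20.0 (14.0th) in the Phase 1 lists only. Upstream of Hoxc12, at chr15:102934962-102935308, p300 at 47.3 (51.9th) and Med12 at 25.1 (27.4th) were called in Phase 1 only, without RUNX1. The start of Hoxc4 had p300 in LP only (31.2, 29.6th percentile). The only RUNX1 site of Hoxd lay 1.62 kb upstream of Hoxd10, at chr2:74690128-74690470, with scores of 15 and 17.2 and no coactivator in either stage. Hoxd was the only cluster with no Med12 and no p300 peak in any list.

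Of the 13 Phase 1 p300 Hox peaks, 9 were not in the LP list, and 7 of these scored under 22. They lay at the internal start of Hoxa3 (21.6), near Hoxa4 (16.0), upstream of Hoxa11 (15.6) and upstream of Hoxb9 (15.9). They also lay at the Hoxb4 site above (20.0), near Hoxc6 (17.1) and at chr6:52150800-52151138 (16.6). The last of these is farther beyond Hoxa2 than the region with RUNX1, Med12 and p300 described above. The other two were the Hoxc12 site and the start of Hoxa5, where p300 at 44.1 (49.2nd percentile) overlapped the Phase 1-only CTCF peak. The median percentile of the 9 was 6.30, against 29.5 for all 20425 Phase 1-only p300 peaks. Stromal genes were marked only in Phase 1 (4 of 8), and whether they share a source with these peaks was not tested.

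**Figure D4:**
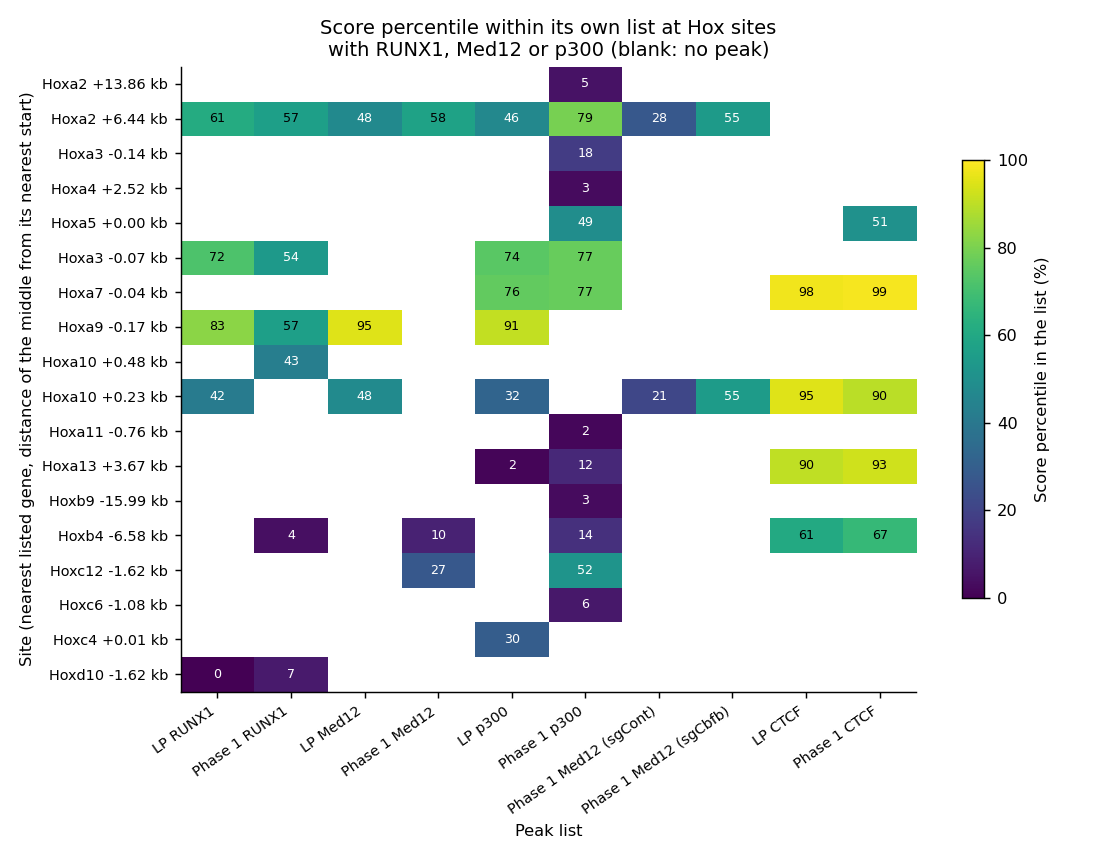
Score percentile (%) of each peak within its own list at the 18 Hox sites with RUNX1, Med12 or p300. Rows are sites, labeled by the nearest listed gene and the distance of the middle of the site from its nearest start in kb (plus, downstream), and columns are lists, CTCF last. Blank cells have no peak. The Hoxa9 row is filled for RUNX1, Med12 and p300 in LP and for RUNX1 alone in Phase 1.

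Between stages, RUNX1 Hox peaks were shared about as often as RUNX1 peaks in general. Of 5 LP peaks, 4 were found in the Phase 1 list (80%, 37.6 to 96.4), against 83.2%. Of 6 Phase 1 peaks, 4 were found in LP (66.7%, 30.0 to 90.3), against 69.3%. Med12 and p300 Hox peaks were shared less often than their lists in these counts. For Med12, 1 of 3 LP peaks was found in Phase 1 (33.3%, 6.15 to 79.2), against 80.5%. The reverse share was also 1 of 3, against 61.8%. For p300, 4 of 7 LP peaks were found in Phase 1 (57.1%, 25 to 84.2), against 79.3%, and 4 of 13 Phase 1 peaks in LP (30.8%, 12.7 to 57.6), against 58.4%. With equal numbers of top-scored p300 peaks taken from both stages, the shares were 3 of 7 (42.9%, 15.8 to 75.0) and 3 of 5 (60.0%, 23.1 to 88.2), against 69.1% of either list. The LP Med12 share was then 1 of 3 against 72.6%, inside its interval. With full lists, the shares of the whole list lay just outside the interval for LP Med12, for Phase 1 p300 and for Phase 1 CTCF, and inside it for the other 5 shares. Nearby peaks are not independent, and the intervals do not allow for that.

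**Figure D5:**
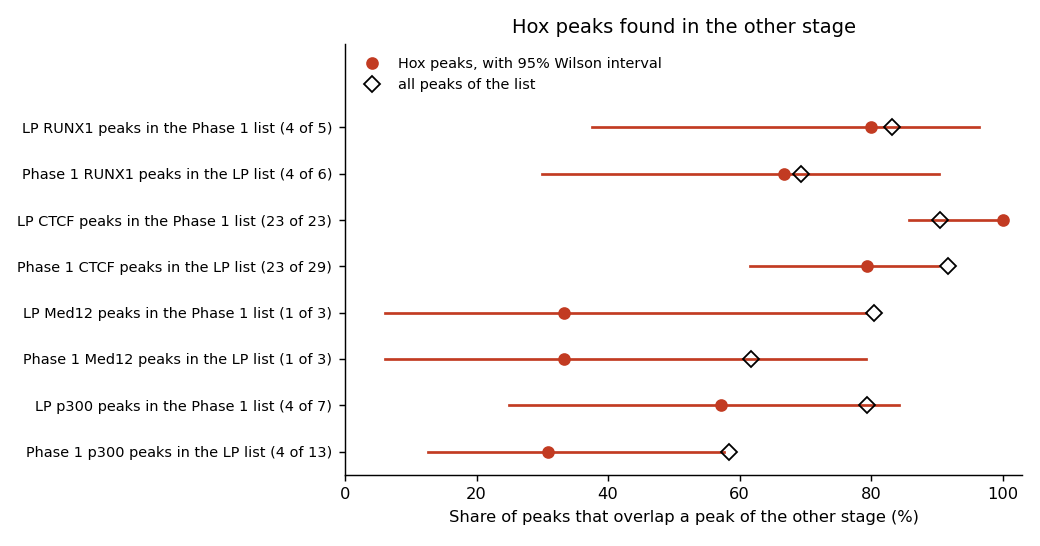
Share (%) of peaks of each list that overlapped a peak of the other stage, for 4 factors in both directions. Filled points are Hox peaks with 95% Wilson intervals, and open diamonds are all peaks of the list. LP CTCF is at 100% and both Med12 shares are at 33.3%.

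RUNX1 at Hox sites overlapped coactivators in fewer cases in Phase 1 than in LP, with few peaks and widely overlapping intervals. In LP, 4 of 5 RUNX1 Hox peaks overlapped p300 (80%, 37.6 to 96.4, against 90.8% of the list). Med12 was overlapped by 3 of 5 (60.0%, 23.1 to 88.2, against 84.7%) and CTCF by 1 of 5 (20.0%, against 23.2%). In Phase 1, 3 of 6 overlapped p300 (50.0%, 18.8 to 81.2, against 87.8%), 2 of 6 Med12 (33.3%, 9.68 to 70.0, against 86.0%) and 1 of 6 CTCF (16.7%, against 15.7%). The 3 Phase 1 peaks with neither Med12 nor p300 were those of Hoxa9, the Hoxa10 exon and Hoxd10, whereas 7.34% of all Phase 1 RUNX1 peaks lacked both. p300 overlapped CTCF at 3 of 7 Hox peaks in LP (42.9%, 15.8 to 75.0, against 23.2%). In Phase 1 it did so at 4 of 13 (30.8%, 12.7 to 57.6, against 15.5%). The shares of the lists lay inside both intervals. These overlaps were at the Hoxa7, Hoxa10 and Hoxa13 sites in LP and the Hoxa5, Hoxa7, Hoxa13 and Hoxb4 sites in Phase 1. p300 scored near the limit of 15 at the Hoxa13 site (15.6 in LP and 19.1 in Phase 1) and the Hoxb4 site (20.0).

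None of the RUNX1 Hox peaks held the strings TGTGGTT or TGCGGTT, which RUNX proteins are known to bind, within the central 200 bp on either strand. They were in 21.2% of LP and 25.4% of Phase 1 RUNX1 peaks, and in 5.75% and 5.68% of windows 2 kb away. With only 5 and 6 Hox peaks, a count of 0 allows shares of up to 60.0% and 50.0%, so no difference from the lists was detectable. The first 6 letters alone, tried after the data were seen, were in 1 of 5 and 2 of 6 Hox peaks and in 42.1% and 47.7% of the lists. GAGGAAGT, a string of the PU.1 type, was in the central 200 bp of 2 of 5 LP and 1 of 6 Phase 1 RUNX1 Hox peaks, against 9.04% and 8.64% of the lists. It was found at 2 sites, the region beyond Hoxa2 and the one upstream of Hoxd10. The latter is printed because it is the only RUNX1 site of Hoxd, with the string in capitals, from chr2:74690233-74690262 on the plus strand.
upstream of Hoxd10: aaagaagaaggGAGGAAGTtgttcaagttt

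Guide-treated cells gave few Hox peaks. The Med12 lists with sgCont and with sgCbfb had 2 each, the same 2 sites in both, beyond Hoxa2 and at the outer start of Hoxa10. Both sgCont peaks (100%, 34.2 to 100) were thus found with sgCbfb, against 67.8% of the sgCont list, and no Hox peak was called in only 1 of these lists, although both scored higher with sgCbfb. Beyond Hoxa2 the score was 24.1 with sgCont (27.6th percentile) and 40.0 with sgCbfb (54.6th). At Hoxa10 the sgCbfb score was likewise the higher one, as given above. How often the shared peaks of these lists as a whole ranked higher with sgCbfb was not counted. An effect of sgCbfb on Med12 at these sites was not tested. The study states that ChIP-seq of its gene-deleted cells used as few cells as possible and was noisier than usual. The 4 RUNX1 lists from guide-treated cells had 0 Hox peaks. These lists were short. With 3 counts again as the limit of a count of 0, the 0 of 975 (LP sgCont), 0 of 874 (LP sgCTCF), 0 of 1550 (Phase 1 sgCont) and 0 of 2094 peaks (Phase 1 sgMed12) allow shares of up to 0.308%, 0.343%, 0.194% and 0.143%. Only 0.0156% of the main LP and 0.0156% of the main Phase 1 RUNX1 peaks were Hox peaks, so an effect of sgCTCF or sgMed12 on RUNX1 at Hox genes was not detectable in lists of this length.

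Notch1-IC had 0 Hox peaks in all 3 lists. The lists held 1585 peaks in LP, 152 in Phase 1 and 352 in Phase 2, which by the same limit allow shares of up to 0.189%, 1.97% and 0.852%. For Phase 1 and Phase 2 these lists were shorter than the sets of reproducible peaks that the study describes. In Phase 1, 1 Notch1-IC peak lay in the 200 kb to either side of the clusters.

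Genes that act with or upon HOX genes mostly had peaks within 20 kb of their bodies, as did most genes. Of 9 genes for TALE homeodomain cofactors of HOX proteins, RUNX1 lay within 20 kb of 7 in LP and 9 in Phase 1, Med12 near 7 and 9, p300 near 8 and 9, and CTCF near 8 in each stage. Over all protein-coding genes, not matched for length, the shares in LP and Phase 1 were 68.4% and 71.3% for RUNX1, 67.8% and 71.9% for Med12, 70.0% and 74.8% for p300 and 79.4% and 79.2% for CTCF, and except for CTCF the Phase 1 lists were the longer ones. Near Meis1, the partner of HOXA9, RUNX1 had 1 peak in LP and 4 in Phase 1 and p300 had 1 and 6. Near Pknox2, RUNX1 and Med12 had 0 peaks in LP and 5 and 6 in Phase 1, and CTCF had 11 and 12. Of 17 regulators of Hox expression, 16 had at least 1 peak of each of the 4 factors in each stage, Cdx4 being the one without any. The same was true of 61.8% of all protein-coding genes. Kmt2a, whose product methylates histone H3 at Hox promoters, had 3 RUNX1 and 2 Med12 peaks in both stages and 2 and 5 p300 peaks. Ezh2, the methyltransferase of Polycomb repression, had 1 peak each of RUNX1, Med12 and p300 in both stages.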

How the data were processed

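ChIP-seq was analyzed from 17 deposited peak lists of 38 samples. Per the labels and the study's methods, the authors aligned reads to mm10 with Bowtie 1.1.1, called peaks with HOMER in factor mode against a control, combined both replicates by irreproducible discovery rate and kept a peak score of at least 15. The deposited score is normalized by the authors, and its scale is not stated in the headers. The lists hold no read totals, so the exact depth of each sample was not used here.

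Hox windows were gene bodies (GENCODE M21) extended by 20 kb. Peaks overlapped when they shared at least 1 bp. Shares have 95% Wilson intervals. Motif strings were searched on both strands in the central 200 bp, read from GRCm38. Described singly were Hox genes with RUNX1, Med12 or p300 within 1 kb of a start, all RUNX1 peaks, the 3 top-scored peaks of each main list, stage-only CTCF peaks and differences between guide lists. Members, gene lists and rules were chosen with earlier results of these data known. Python 3.11.15, pandas 2.3.3, pysam 0.24.0 and samtools 1.23.1 were used, and the overlap and string searches were tested on simulated data. Other windows, scores, overlaps and mismatches were tried as alternatives.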

Additional observations from a re-analysis of the deposited data

How the results depend on the processing

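With windows of 10 kb, a stricter overlap (50% of the shorter peak), any base of a peak in the window, or the whole CTCF peak searched, each count tried stayed within 1.5 times its value and each share tried within its interval. Any base of a peak was tried for the 8 main lists only, and the overlaps of RUNX1 with Med12 or p300, of p300 with CTCF and of sgCont with sgCbfb were not tried under other settings. Windows of 50 kb raised the Phase 1 counts of Med12 from 3 to 6 and of p300 from 13 to 20. Gene bodies alone left 2 RUNX1, 10 CTCF and 3 p300 peaks in LP, and 2 RUNX1, 15 CTCF, 0 Med12 and 4 p300 peaks in Phase 1, and 1 Med12 peak each with sgCont and sgCbfb. The shares of LP Med12 and LP p300 peaks found in Phase 1, of Phase 1 p300 peaks found in LP and of Phase 1 RUNX1 peaks on CTCF were then 0%. A minimum score of 30 left 1 Phase 1 Med12 peak, 5 Phase 1 p300 peaks and 0 sgCont Med12 peaks. It also set the Phase 1 Med12 share found in LP to 100%, that of p300 to 60.0% and the Phase 1 RUNX1 share on CTCF to 0%. With equal numbers of top-scored peaks from both stages, the Phase 1 p300 share found in LP was 60.0% and the LP p300 share found in Phase 1 was 42.9%, against 69.1% of either list. The cause was not tested. The CTCF core with 1 mismatch was in 30.4% of LP and 24.1% of Phase 1 Hox peaks, and with 2 mismatches, a choice made after seeing the data, in 73.9% and 72.4%.

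No paired analysis was possible because the deposited lists combine both replicates of a group. Most counts rest on under 10 peaks, so a single peak moves a share by over 10 percentage points. No list was scaled to another, and a missing peak means only that none passed the score and reproducibility limits.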
